A study of Mus musculus with 4 samples.

Results

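The members described here are 42 microRNA (miRNA) hairpins of the imprinted Dlk1-Dio3 region of mouse chromosome 12, measured in sperm small RNA libraries. They were chosen by name, from the hairpin names the submitters attached to each read (mmu-mir-127, mmu-mir-411 and mmu-mir-379 for the miR-127, miR-411 and miR-379 described here), and reads of 18 nt or longer whose names held only members were summed per hairpin. Of the 42 members, 30 were read in at least 1 library, among 389 hairpin labels read in all. The 4 libraries came from C57BL mice, 2 from undisturbed controls and 2 from mice labelled Mdd, which had been given random daily stressors such as cage tilt, white noise, strobe light, restraint and isolation, a regime used to produce depressive-like behaviour. The study asked how short RNAs of sperm differ after it. No genetic alteration is named for either group. The protocol names sperm as the RNA source and RNA selected from 18 to 40 nt, while the tissue and cell type fields name testis and testicular cells. Libraries are given in the order control 1, control 2, Mdd 1, Mdd 2, and the labels do not say whether each came from its own animal. The p-values therefore rest on the scatter among 4 libraries, part of which may be technical.

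Imprinting is expression from only the maternal or only the paternal copy of a gene. At Dlk1-Dio3 the paternal copy gives the proteins Dlk1, Rtl1 and Dio3, and the maternal copy gives long non-coding RNAs (Meg3, an antisense RNA of Rtl1, Rian and Mirg) from which the miRNAs are cut. Sperm carry the paternal pattern of DNA methylation at the region's control element. The miRNAs are best known from embryo, placenta and adult brain, and miR-127 lies antisense to Rtl1, whose transcript it matches in full and can cut. Each hairpin has a 5′ and a 3′ arm (5p and 3p), and bases 2 to 8 of a mature miRNA, its seed, select its targets.

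RefSeq held a hairpin entry for 41 of the 42 members, and all 41 lie on the plus strand of chromosome 12 in GRCm38.p6, between positions 109563692 and 109743795, a span of 180.1 kb. The gene Dlk1 begins at 109452485 and Dio3 at 110279230. In the GENCODE M21 annotation of the same build, 5 hairpins lie opposite an exon of Rtl1, 2 in introns of Rian, 12 in Mirg (8 overlapping exons and 4 in introns) and 1 overlaps an exon of Meg3. The other 21 lie in no annotated gene apart from miRNA genes. The files themselves give no coordinates. All 121 distinct member sequences of 18 nt or longer were found letter for letter in the RefSeq hairpin of their name.

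The mature miRNAs of the arm read most are shown first for the members with at least 100 reads, because nearly all reads of the cluster come from them. The sequences are from RefSeq (GRCm38.p6), 5′ to 3′, with the seed in capitals.
miR-127-3p: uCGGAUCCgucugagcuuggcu
miR-411-5p: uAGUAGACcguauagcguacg
miR-379-5p: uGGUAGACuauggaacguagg
miR-369-5p: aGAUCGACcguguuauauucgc
miR-541-5p: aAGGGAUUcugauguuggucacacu
miR-434-3p: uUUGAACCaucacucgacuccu
miR-341-3p: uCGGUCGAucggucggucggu
miR-431-5p: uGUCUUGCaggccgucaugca
miR-337-5p: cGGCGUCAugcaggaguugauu
miR-485-5p is the tenth of these members. The 9 seeds shown all differ. Over the 80 mature arms of members in the RefSeq table there were 77 distinct seeds, and 3 were shared by a pair of arms each: miR-379-3p with miR-411-3p, miR-410-5p with miR-494-5p, and miR-376b-5p with miR-376c-5p.

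Member reads numbered 1320, 5765, 4135 and 2560, and made up 1.84% (95% Wilson interval 1.74% to 1.94%), 2.19% (2.13% to 2.24%), 2.08% (2.02% to 2.14%) and 2.72% (2.62% to 2.83%) of miRNA reads of 18 nt or longer, which numbered 71902, 263748, 198947 and 94011. The groups overlapped (2.01% ± 0.248 in controls against 2.40% ± 0.456 in Mdd, SD, n = 2 each; exact two-sided permutation p = 0.667, where 0.333 is the smallest that 2 against 2 allow). Per 1000000 of all reads of 18 nt or longer the cluster stood at 136, 344, 174 and 108, so the order of the group means turns with the denominator. The reads are not independent molecules: the usual number of copies of a genome-matched sequence was 7, 10, 38 and 8 reads. Divided by that number the cluster held 188.6, 576.5, 108.8 and 320.0 copies-corrected counts, and the widest Wilson interval was that of Mdd 1, 1.73% to 2.51%. Intervals and floors cover counting error only.

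A pair of miRNAs held most of the cluster. miR-127 gave 5975 of 13780 member reads and miR-411 gave 4455, together 75.7%. The 10 members with at least 100 reads gave 96.5%. The other 20 members that were read had 1 to 81 reads over the 4 libraries, and 8 of them had 10 or fewer. No read of 18 nt or longer was found for 12 members: miR-134, miR-329, miR-370, miR-433, miR-539, miR-543, miR-665, miR-666, miR-667, miR-679, miR-758 and miR-770. miR-134, which limits dendritic spine size in neurons, is among them.

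**Figure D1:**
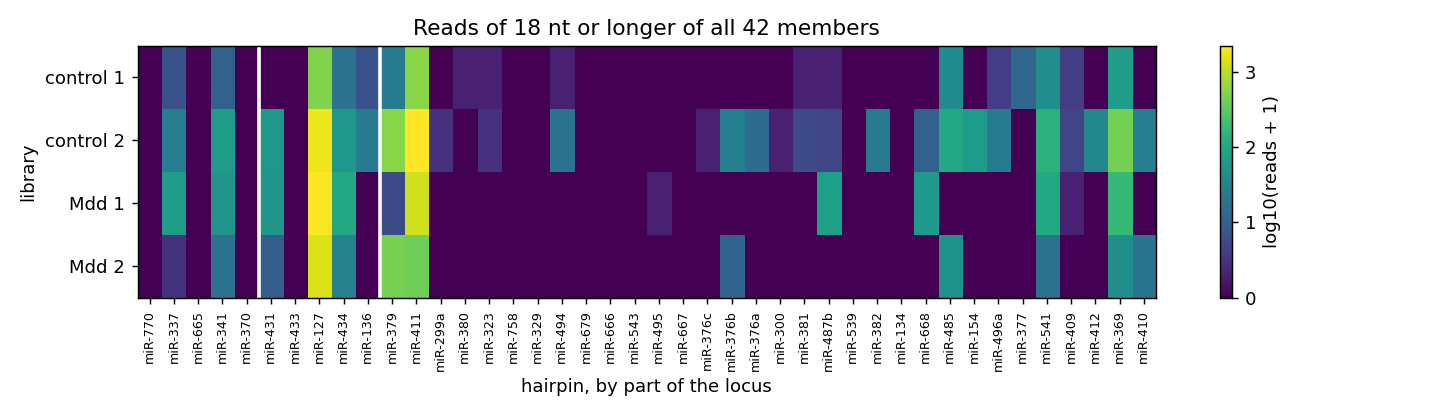
Reads of 18 nt or longer for each of the 42 members (columns, by part of the locus; white lines separate the Meg3 and Rian side, the antisense strand of Rtl1 and the miR-379 to miR-410 group) in each library (rows), coloured as log10(reads + 1). miR-127 and miR-411 are the brightest columns, and control 2 has the most members with reads, 27 of 42.

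The number of members read differed between libraries. It was 18, 27, 13 and 12, and 8 were read in all 4 libraries: miR-127, miR-411, miR-379, miR-369, miR-541, miR-434, miR-341 and miR-337. That is 26.7% of the members read, beside 48.8% of all hairpin labels. Another 10 members were read in 1 library, control 2 for 7 of them, and over all labels control 2 was that library for 62 of 99. Control 2 also had the most miRNA reads, before and after division by the usual copies (10272, 26375, 5235 and 11751 after it). The part of depth in these counts was not tested. A floor of 3 counts multiplied by those copies is 21, 30, 114 and 24 reads, and 6, 11, 3 and 6 members reached it. In Mdd 1 these were miR-127, miR-411 and miR-369.

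Along the locus the reads came from a few places. On the antisense strand of Rtl1, 4 of 5 members were read, with 7427, 7367, 11697 and 16317 CPM (counts per 1000000 miRNA reads of 18 nt or longer), and 5975 of the 6338 reads were miR-127. In the miR-379 to miR-410 group 24 of 32 members were read, with 10709, 14135, 8455 and 10712 CPM. Within that group miR-379 and miR-411, neighbours at its start, gave 5495 reads. The next 20 members in order, miR-299a to miR-134, gave 189 reads in all (1.37% of the cluster; 12 of them were read), and the last 10, miR-668 to miR-410, were all read and gave 1503. These stretches were drawn after the values were seen. Of the 3 parts of the locus the Meg3 and Rian side was lowest, with 2 of 5 members read (miR-337 and miR-341) at 223, 356, 633 and 202 CPM.

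miR-127, cut from the antisense strand of Rtl1, was the most read member over the 4 libraries together and in both Mdd libraries, while miR-411 was read more in both controls. miR-127 had 510, 1801, 2169 and 1495 reads, or 7093, 6828, 10902 and 15902 CPM. The 2 control libraries lay close together and both Mdd libraries lay above them (6961 ± 187 against 13402 ± 3536 CPM, SD, n = 2 each). The log2 fold change of miR-127 was 0.98 with a standard error (SE) of 0.64. It did not pass edgeR's quasi-likelihood test after Benjamini-Hochberg adjustment over all labels tested (adjusted p = 0.952). Scaled to all reads of 18 nt or longer the fold change was -0.05, so the higher level holds relative to other miRNAs only.

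miR-411 went the other way. It had 569, 2218, 1257 and 411 reads, or 7914, 8410, 6318 and 4372 CPM, with both Mdd libraries below both controls (8162 ± 351 against 5345 ± 1376 CPM, SD, n = 2 each). Its log2 fold change of -0.56 (SE 0.64) did not pass either (adjusted p = 0.992 with edgeR). It ranged from -1.44 to -0.17 over the alternatives. Because both miRNAs are counted in the same library, their ratio does not depend on scaling: there were 0.896 and 0.812 reads of miR-127 per read of miR-411 in controls and 1.73 and 3.64 in Mdd. The groups did not overlap, and the exact permutation p of 0.333 is the smallest possible. The ratio was chosen after its values were seen.

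**Figure D2:**
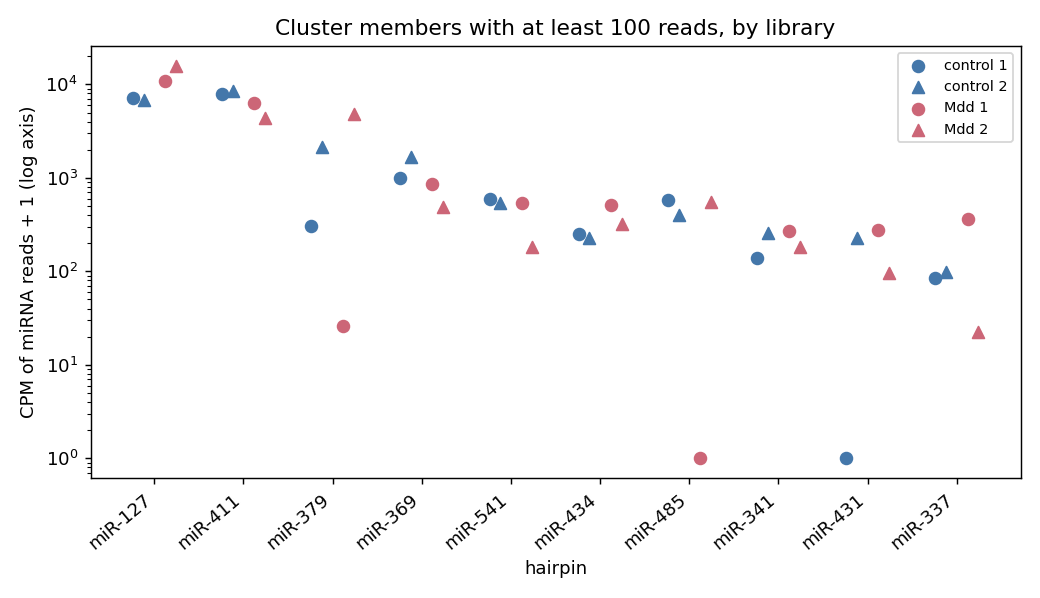
CPM + 1 of miRNA reads of 18 nt or longer (log axis) for the 10 members with at least 100 reads, 1 point per library, circles for replicate 1 and triangles for replicate 2. Both Mdd points of miR-127 lie above both controls, those of miR-411 below, and miR-379 spreads widely within both groups. Points at 1 are libraries with 0 reads.

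miR-379, the neighbour of miR-411, varied more within groups than between them. It had 22, 562, 5 and 451 reads, or 306, 2131, 25.1 and 4797 CPM, so replicate 2 was high and replicate 1 low in both groups. The replicates differed 6.96-fold in controls and 190.9-fold in Mdd, where those of miR-411 differed 1.06-fold and 1.45-fold. The 5 reads of Mdd 1 lie under that library's floor of 114 reads (573 CPM) with the usual copies, so the size of the 190.9-fold is uncertain. The log2 fold change was 0.87 with a standard error of 1.60 (edgeR, adjusted p = 0.992). Without Mdd 2, where the Mdd value rests on those 5 reads, the fold change was -5.37. Without control 2 it was 3.04. Per read of miR-411 there were 0.0387, 0.253, 0.0040 and 1.10 reads of miR-379.

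Of the remaining members of the miR-379 to miR-410 group, miR-369 had 71, 438, 173 and 46 reads, or 987, 1661, 870 and 489 CPM. Both Mdd libraries lay below both controls. The log2 fold change of miR-369 was -0.94 with a standard error of 0.99, and it did not pass (adjusted p = 0.992 with edgeR). It was -1.51 without Mdd 1, -0.41 without Mdd 2, -0.38 without control 2 and -1.86 with the library size of all reads. miR-369 gave 0.125, 0.198, 0.138 and 0.112 reads per read of miR-411, values that overlap between groups. miR-541 had 43, 142, 107 and 17 reads, or 598.0, 538.4, 537.8 and 180.8 CPM, and Mdd 1 was below control 2 by less than 1 CPM. Both Mdd counts lie under the floors of those libraries with the usual copies (114 and 24 reads). The fold change of miR-541 was -0.58 (SE 1.37), and 0.12 without Mdd 2. miR-485 had 42, 105, 0 and 52 reads, or 584, 398, 0 and 553 CPM. Its absence from Mdd 1 is a count of 0 that allows up to 15.1 CPM with each read independent, and 573 CPM with the usual copies, which is above the values of control 2 and Mdd 2. Without Mdd 2, the library left in that group holds 0 reads, and miR-485 then passed with edgeR (adjusted p = 0.0421, against 0.992 with all libraries).

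miR-434 and miR-431 share the antisense strand of Rtl1 with miR-127. miR-434 had 18, 60, 103 and 30 reads, or 250, 227, 518 and 319 CPM, both Mdd libraries above both controls (log2 fold change 0.87, SE 1.52). Its reads in control 1 and Mdd 1 lie under the floors of those libraries with the usual copies (21 and 114 reads). The fold change was 0.38 without Mdd 1, 1.32 without Mdd 2 and 0.04 with the library size of all reads. Per 1000000 of all reads of 18 nt or longer the groups of miR-434 overlapped (1.85, 3.58, 4.34 and 1.26). miR-431 had 0, 60, 55 and 9 reads and overlapped between groups (0.63, SE 2.23). miR-136, the remaining member read there, had 6, 22, 0 and 0 reads. Its 83.4 CPM in both controls lie under the floor of the Mdd libraries with the usual copies (573 and 255 CPM), so no fold is given. On the Meg3 and Rian side, miR-341 had 10, 68, 54 and 17 reads (fold change 0.20, SE 1.73) and miR-337 had 6, 26, 72 and 2 (1.15, SE 2.12), each overlapping between groups. None of these 5 passed the test (adjusted p = 0.845 for miR-136 and 0.992 for the other 4 with edgeR).

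Of the 20 members under 100 reads, 3 entered the test: miR-136, miR-410 and miR-376b. miR-410 had 0, 26, 0 and 19 reads and miR-376b 0, 27, 0 and 11, so both were read in replicate 2 of each group and not in replicate 1. miR-487b had 1, 4, 76 and 0 reads and miR-668 0, 10, 62 and 0. Their reads in Mdd 1 lie below that library's floor of 114 reads, as did those of 10 of the 13 members read there.

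Over all members, 13 of 42 passed the filter on low counts and 0 of these 13 were called with edgeR, where 0 of 236 labels were called in all (0%; the smallest adjusted p was 0.158). With no adjustment, 0 members and 11 labels (4.66%) had p under 0.05. Fold changes were positive for 7 of the 13 members (median log2 0.20, and 0.20 with miR-136 set to 3 reads in each Mdd library), where 47.9% of all labels were positive (median -0.04). Both Mdd libraries lay above both controls for 2 tested members, where 16.5% of all labels did so, and below for 4, where 21.6% did. Of these 4, miR-541 and miR-136 lie under the floors of both Mdd libraries with the usual copies. DESeq2 called 0 of the 30 members read, and 5 of 389 labels (1.29%). Without Mdd 2 edgeR called 2 of 20 members, miR-379 and miR-485, where 5.63% of 284 labels were called.

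**Figure D3:**
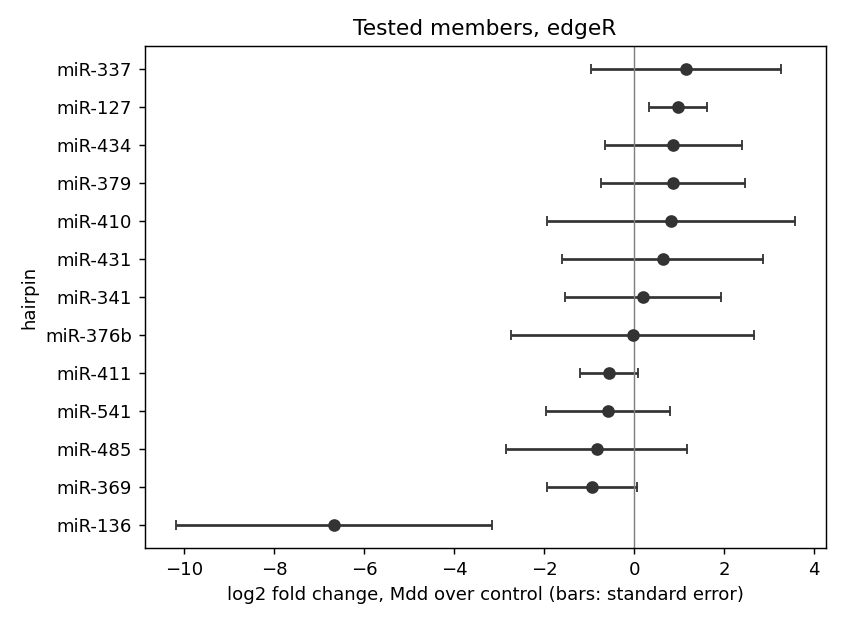
log2 fold changes of the 13 tested members, Mdd over control, with standard errors (horizontal bars), from edgeR. All but miR-136 lie between -0.94 and 1.15; the value of miR-136, which had 0 reads in both Mdd libraries, depends on the prior count and is no bound.

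Of the 10 members with at least 100 reads, 8 were read almost wholly from 1 arm. The 3p arm gave 99.98% of miR-127 reads, and the 5p arm gave 99.7% of miR-411, 99.8% of miR-379, 98.5% of miR-369 and all 309 reads of miR-541. At that length miR-485 and miR-431 were read only from the 5p arm and miR-341 only from the 3p arm. A 16 nt sequence of the miR-341 5p arm had 28 reads, all in control 2. The exceptions were miR-434, with 74.4% of its reads on the 3p arm, and miR-337, with 90.6% on the 5p arm. In the cluster as a whole the 5p arm held 57.8% and 65.3% of control reads and 41.8% and 39.6% of Mdd reads (61.5% ± 5.27 against 40.7% ± 1.58, SD, n = 2 each; exact permutation p = 0.333, the smallest possible). miR-127, read from the 3p arm, made up 38.6%, 31.2%, 52.5% and 58.4% of cluster reads. Without miR-127 the 5p share was 94.2%, 94.9%, 88.0% and 95.2%, and the groups overlapped. Counted by distinct sequences it was 41.2%, 59.8%, 59.3% and 65.5% for the whole cluster, with the Mdd mean above the control mean.

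The hairpins of the 3 most read members show where the reads lie. They are given from RefSeq (GRCm38.p6, plus strand), with the mature arm read most in capitals. The hairpin of miR-127 lies at chr12:109592846-109592915, opposite an exon of Rtl1, that of miR-411 at chr12:109710175-109710256 and that of miR-379 at chr12:109709060-109709125, both between the annotated genes Rian and Mirg.
miR-127 hairpin: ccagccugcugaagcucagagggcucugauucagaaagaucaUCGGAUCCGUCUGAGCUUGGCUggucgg
miR-411 hairpin: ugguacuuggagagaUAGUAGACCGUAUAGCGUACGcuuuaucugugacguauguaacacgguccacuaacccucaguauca
miR-379 hairpin: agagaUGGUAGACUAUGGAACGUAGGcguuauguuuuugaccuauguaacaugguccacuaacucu

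Variants of a miRNA that begin or end a few bases away from the reference are called isomiRs. The 4 most read forms of miR-127 are shown as sequenced, with bases 2 to 8 in capitals, because a single short form stands out among them.
22 nt, reference form: tCGGATCCgtctgagcttggct
17 nt, 5 bases shorter at the 3′ end: tCGGATCCgtctgagct
21 nt, 1 base shorter: tCGGATCCgtctgagcttggc
19 nt, 3 bases shorter: tCGGATCCgtctgagcttg
All 4 begin at the reference start and keep its seed. The reference form had 414, 1520, 1744 and 1245 reads, which was 81.2%, 84.4%, 80.4% and 83.3% of miR-127 reads of 18 nt or longer. The 17 nt form falls under the 18 nt limit used for all other values. It had 172, 481, 523 and 249 reads, or 41.5, 31.6, 30.0 and 20.0 per 100 reads of the reference form. The 3 bases that follow its end in the hairpin are TGG. Whether this end was made in the cells or by the trimming of reads before deposit was not tested, so the 17 nt form may not be a true isomiR.

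miR-411 was read from more than 1 start. Its 4 most read forms are shown because a shift of the start moves the seed.
21 nt, reference form: tAGTAGACcgtatagcgtacg
22 nt, starting 1 base earlier: aTAGTAGAccgtatagcgtacg
18 nt, starting 2 bases later: gTAGACCGtatagcgtac
20 nt, 1 base shorter at the 3′ end: tAGTAGACcgtatagcgtac
Forms starting 1 base earlier made up 27.1%, 29.1%, 27.8% and 9.0% of miR-411 5p reads. Controls and Mdd 1 were thus alike within 2 percentage points and Mdd 2 stood apart (28.1% ± 1.38 against 18.4% ± 13.3, SD, n = 2 each; exact permutation p = 0.667). Mdd 2 had 37 such reads of 411. The 18 nt form had 57 reads in Mdd 1 and 0 in the other libraries, which is under that library's floor of 114 reads.

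miR-379 differed between libraries in its ends as well as in its level. Its 4 most read forms share the reference start and seed.
21 nt, reference form: tGGTAGACtatggaacgtagg
18 nt, 3 bases shorter at the 3′ end: tGGTAGACtatggaacgt
20 nt, 1 base shorter: tGGTAGACtatggaacgtag
19 nt, 2 bases shorter: tGGTAGACtatggaacgta
The reference form had 7, 241, 1 and 423 reads. It was 42.9% of miR-379 reads of 18 nt or longer in control 2 and 93.8% in Mdd 2, the 2 libraries with enough reads to compare. The 18 nt form had 117 reads in control 2 and 7 in Mdd 2.

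**Figure D4:**
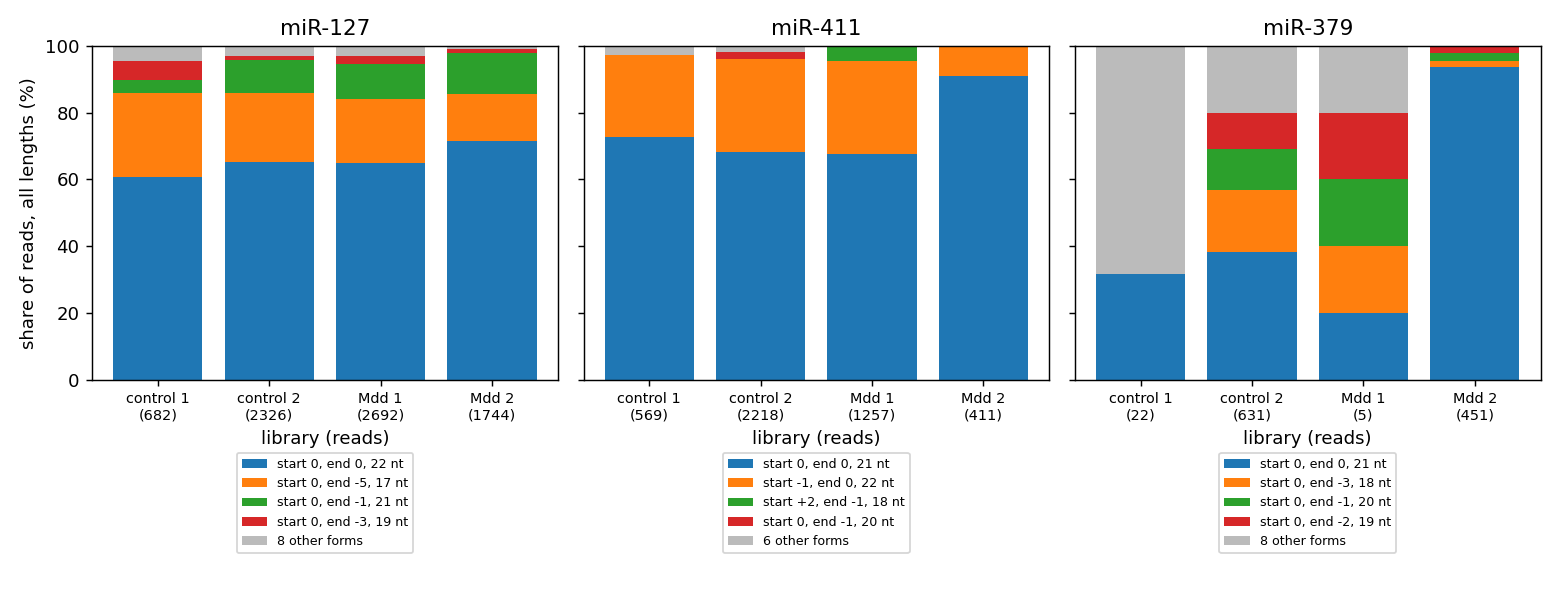
Share of reads of all lengths (%) of miR-127, miR-411 and miR-379 held by each member's 4 most read forms and by all others, per library; the reads behind each bar stand under it. Starts and ends are counted in bases from the reference mature miRNA. The form of miR-411 starting 1 base earlier is smallest in Mdd 2, and the miR-379 bars of control 1 and Mdd 1 rest on 22 and 5 reads.

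Over all reads that lie on an arm with a RefSeq entry, 84.4% and 84.8% in controls and 87.2% and 97.2% in Mdd began at the reference start (84.6% ± 0.241 against 92.2% ± 7.05, SD, n = 2 each; exact permutation p = 0.333). The groups did not overlap, and the difference was 7.64 percentage points, or 2.65 without Mdd 2. The most read forms of miR-127 begin at the reference start, and miR-127 made up 38.6%, 31.2%, 52.5% and 58.4% of cluster reads. The part of miR-127 in this difference was not tested, so it need not be a shift of starts within members. Among 5p reads of miR-411, 72.9%, 70.9%, 67.6% and 91.0% began at the reference start, and the groups overlapped. Reads averaged 21.3, 21.2, 21.6 and 21.5 nt, and 90.9% to 98.1% of them were 20 to 23 nt long. Of the 121 distinct sequences, 8 occurred in all 4 libraries and held 82.9% of the reads, while 80 occurred in a single library with 830 reads in all.

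Among 19 further hairpin names of the locus from a fixed list, 3 were read and 1 was tested. miR-1247, which lies beside Dio3 at the other end of the region, had 46, 81, 0 and 25 reads and a log2 fold change of -1.82 with a standard error of 2.09 (edgeR's adjusted p = 0.992). miR-493 and miR-654 had 2 reads each, both in controls. Of 5 hairpins of other imprinted regions, 4 were read, 3 were tested and 0 passed. miR-296 had 31, 24, 4 and 93 reads, miR-483 had 1, 10, 45 and 8, and miR-675, cut from the imprinted RNA H19, had 6, 115, 0 and 0. The 83.4 and 436 CPM of miR-675 in controls lie under the floor of Mdd 1 with the usual copies (573 CPM). Only the value of control 2 lies above the floor of Mdd 2 (255 CPM).

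Markers of other cells are given for the whole lists, since the cluster is also known from brain and other somatic tissue. Germ cell miRNAs (3 of 5 read; miR-449b and miR-449c at 0 under their own names) summed to 103129 to 223610 CPM in controls and 211465 to 257239 in Mdd. Neural miRNAs, all 6 read, summed to 5118, 4478, 11516 and 3319 CPM, of which miR-124 had 890, 603, 9138 and 1479. By contrast, miR-9 had 1655, 645, 60.3 and 372 CPM. Of the 5 neural miRNAs tested, 2 had positive and 3 negative fold changes (median log2 -0.34). Muscle and stromal miRNAs, all 10 read, summed to 51292, 141612, 46600 and 61110 CPM, highest in control 2, the library with the most members read. Gonadal somatic miRNAs, all 4 read, summed to 5035, 3291, 2925 and 3457 CPM, and miR-204 gave 1770 of their 2137 reads. The 3 tested had log2 fold changes of -0.007 (miR-204, SE 0.67), -2.98 (miR-202, SE 2.05) and -2.39 (miR-322, SE 1.90), and 0 were called. Blood miRNAs, all 6 read, summed to 46188, 6472, 57865 and 48292 CPM, and epithelial miRNAs, all 6 read, to 8247, 17392, 7449 and 17253. miR-451a gave 20685 of the 21080 blood reads, so the blood sum follows it. miR-150, miR-223 and miR-144 were highest in control 2, miR-142a in control 1 and miR-486a in Mdd 2. Of the 4 blood miRNAs tested, 1 had a positive and 3 a negative fold change. miR-127 was highest in Mdd 2, where none of these sums was highest. The epithelial sum there, 17253 CPM, was close to the 17392 CPM of control 2. Of the 3 germ cell miRNAs read, miR-34c was highest in Mdd 2 (30730 CPM), miR-34b in Mdd 1 and miR-449a in control 2. miR-411 was highest in control 2, as were the muscle and stromal and the epithelial sums. The part of these cells in the cluster's levels was not tested. In bulk RNA, fewer cells of a type and less RNA per cell cannot be told apart.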

How the data were processed

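The 4 libraries were sequenced from sperm RNA with a MGIEasy small RNA kit, per the labels' protocols. Per the file headers, the authors deposited 1 row per distinct sequence of 15 to 45 nt with a raw read count, a genome match and an annotation; the lengths are as deposited. The submitters' processing notes name mm9 and DESeq2; for the aligner, trimming and databases the sources used here give nothing. The files held 12845403, 22948488, 24031479 and 24112532 reads, of which 75.6%, 73.0%, 98.8% and 98.7% were 18 nt or longer.

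Tables were joined by sequence, each sequence took the first annotation any file gave, copy numbers were dropped from hairpin names, and reads of 18 nt or longer were summed per name. Member sequences carried the same names in every file. Counts were tested with edgeR 4.0.16 in R 4.3.3 (quasi-likelihood, TMM, filterByExpr, group only, two-sided, threshold 0.05), checked on simulated data. Single values were compared by exact permutation. A read was placed on an arm by its position in the RefSeq hairpin and on a mature miRNA by an overlap of at least 10 nt. Usual copies are the peak, beyond the first minimum, of the smoothed histogram of reads per genome-matched sequence. Standard errors are the fold change over the root of F.

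Alternatives were RLE scaling, library size only or of all reads, DESeq2 1.42.0, filtering on a mean CPM of 10 or on nothing, the replicate block, all lengths, 18 to 25 nt, annotation as deposited, division by copies, distinct sequences, another denominator and each library left out. Members of at least 100 reads were named with values. Members, lists and tests were chosen with earlier results of these data known. Python 3.11.15 and pandas 2.3.3 were used for tables.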

Additional observations from a re-analysis of the deposited data

Results flagged for a closer look

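Reads of miR-127 that are 17 nt long lie outside the reads of 18 nt or longer used above, and stood higher in both Mdd libraries than in both controls, at 2570 and 2592 against 2125 and 1677 CPM of miRNA reads of all lengths (means of 2581.04 and 1901 CPM; exact permutation p = 0.333, the smallest possible). Relative to the 22 nt form they stood lower in both Mdd libraries, at 30.0% and 20.0% against 41.5% and 31.6% (exact permutation p = 0.333). Reads of 18 nt or longer were 75.6% and 73.0% of all reads in the control files and 98.8% and 98.7% in the Mdd files, and the part of this difference in either comparison was not tested. All member reads under 18 nt in Mdd, 523 and 249, were this form, against 172 of 174 and 481 of 674 in controls. Of 1620 such member reads, 1443 ended where the hairpin goes on with TGG, as did 980 of the 13780 member reads of 18 nt or longer. Those 1443 reads came from 2 of 14 distinct sequences, and 1425 of them were the 17 nt form of miR-127. Of the 980 longer reads, 750 were the 21 nt form of miR-127, so both counts rest mostly on 1 sequence each. Whether trimming of reads before deposit made these ends was not tested.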

How the results depend on the processing

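The count of members called was 0 under each alternative that used all 4 libraries, and 0 to 2 with 1 library left out (2 without Mdd 2). Calls over all labels numbered 5 with the library size of all reads, 5 with DESeq2, 6 with no filter, 6 with a mean CPM of at least 10, 1 with all lengths, 4 with the replicate block and 0 to 16 with 1 library left out, against 0. The cause was not tested. With the library size of all reads the fold changes of miR-127 (-0.054), miR-341 (-0.77), miR-379 (-0.90) and miR-431 (-0.42) changed sign, and so did miR-341 with all lengths (-0.0176). With the replicate block miR-379 was -0.96. The deviations of same-numbered libraries correlated at -0.03 over 236 labels. A correlation over all labels cannot show whether some labels, such as miR-379, share a batch by number, and this was not tested. With 1 library left out the fold changes ran from -0.28 to 0.85 for miR-341, -5.37 to 3.04 for miR-379, -0.46 to 7.56 for miR-431, -9.38 to 0.16 for miR-485 and -1.68 to 0.12 for miR-541, and kept their sign for miR-127 (0.85 to 1.15) and miR-411 (-0.94 to -0.17). The difference in the cluster's share turned to -0.0099 percentage points of all reads, and that of the 5p share to 11.9 over distinct sequences. No read named both members and other hairpins. With a single library in a group, that library is assumed to vary like the other group.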
